A study of Mus musculus with 87 samples.

Results

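The genes described here are 10 pluripotency genes of the mouse, found by their symbol in each of 13 tables of RNA-seq comparisons, which list 26171 gene symbols each. 6 of them are core pluripotency genes, Pou5f1, Sox2, Utf1, Sall4, Dppa4 and Lin28a, and 4 are formative genes, Fgf5, Otx2, Pou3f1 and Lef1. They are found by name, with no threshold on a measured value, and were proposed with earlier results of these data known. All 10 had an adjusted p in every table, so none was lost to a filter on low values.

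Core genes are active throughout the pluripotent state, in which a cell can still form every tissue of the embryo. Pou5f1 (also called Oct4) and Sox2 encode transcription factors that bind DNA as partners, Sall4 encodes a zinc finger factor of the same network, Utf1 and Dppa4 encode chromatin-associated proteins, and Lin28a encodes an RNA-binding protein that blocks maturation of let-7 microRNAs. Formative genes mark cells that have left the naive state and gain competence for differentiation: Otx2 and Pou3f1 (Oct6) encode transcription factors, Fgf5 encodes a secreted growth factor, and Lef1 encodes a DNA-binding effector of Wnt signalling. Suz12 is a subunit of Polycomb repressive complex 2 (PRC2), which places trimethylation on lysine 27 of histone H3 (H3K27me3), a mark of repressed developmental genes.

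The study altered Suz12 exon 4, an alternatively spliced exon, in the mouse embryonic stem cell (ESC) line 129-B13, grown in 20% serum with LIF, and sequenced polyadenylated RNA. The 18 ESC samples were wild type (WT, 3), CSex4, in which exon 4 is always included (2), Deltaex4, in which exon 4 is deleted (2), the full Suz12 knock-out (KO, 3), and this knock-out rescued with the long isoform (KO-L, 2) or the short isoform (KO-S, 2). Groups KO-L3D and KO-S3D (2 each) were knock-out cells carrying the same isoforms at the Rosa26 locus bearing a change labelled 3D. The 14 samples of neuronal precursors (NP), made from such ESC through embryoid bodies with retinoic acid on day 4 and harvested on day 8, were 4 WT and 2 of each of KO, CSex4, Deltaex4, KO-S and KO-L. All groups but WT, CSex4 and Deltaex4 thus carry the full knock-out. The labels do not say how many clones stand behind a group or whether the samples of a group came from separate cultures, so p-values measure the spread between these samples, which may be technical.

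Whole read counts of all 32 libraries were recovered from the authors' mean values, and totals lay between 23570194 and 47201666 reads, the next highest being 32794628. A level is given below as normalised CPM: a library's reads divided by its size factor and by the mean library total, on the usual scale of CPM. Libraries are called A, B and C after the pairs in which the authors' fits compared them, and the letters carry no order. The NP WT libraries form a first pair, which was set against CSex4, Deltaex4 and KO, and a second pair, which was set against KO in a table of its own. Suz12 itself had levels of 165 to 322 in ESC WT and 45.9 to 94.5 in ESC KO, and of 97.5 to 181 in NP WT and 37.5 and 39.2 in NP KO. Among the ESC rescues, KO-L had 135 and 121, KO-S had 146 and 144, and KO-S3D had 176.5 and 356. In the libraries labelled KO-L3D it was 93.6 and 60.5, within the range of ESC KO, so the Suz12 level does not bear out that label of a rescue. A low level is not particular to them. ESC Deltaex4, which is no knock-out, had 80.7 to 143, below every ESC WT library and in part within the KO range. ESC CSex4 had 267 to 270. In NP, KO-S had 71.0 to 92.4, below every NP WT library, and KO-L had 93.7 to 103.5. Whether RNA of the rescue constructs is counted under the gene was not tested. The ESC marker sum (Pou5f1, Nanog, Zfp42, Esrrb) was 1160 to 4036 in ESC and 32.7 to 920.4 in NP. In bulk RNA, fewer cells of a type and less RNA per cell cannot be told apart.

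Some WT libraries stood apart from their group. NP WT first pair B had a summed level of 381 over 8 neural precursor markers against 1121, 1327 and 1241 in the other 3 NP WT libraries, and an ESC marker sum of 242 against 98.3, 32.7 and 34.0. ESC WT A had a summed level of 65.0 over 4 endoderm markers (Gata4, Gata6, Sox17, Foxa2) against 2.81 and 2.65 in the other 2 ESC WT libraries. Their part in the results was not tested. The limma value without them is given beside each result whose call they ended in the fit with no replicate block.

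The formative genes lay in the authors' lists of Suz12 and H3K27me3 regions and the core genes did not. Each of the 4 formative genes overlapped both a Suz12 region and an H3K27me3 region of the 2 lists that the authors made with DiffBind for ESC, and none of the 6 core genes lay within 2500 bp of either. Over 21896 protein-coding genes of the GRCm38.p6 annotation, 11.8% lay within 2500 bp of a Suz12 region and 22.3% within 2500 bp of an H3K27me3 region. The lists do not say which group WT was compared with or in which direction a region changed, and positions of lists and genes were set side by side because the submitters' processing notes name mm10, the same assembly series. The nearest core gene was Sox2, whose start lay 6931 bp from a Suz12 region and 7102 bp from an H3K27me3 region.

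The regions differed in width and in what they covered. At Fgf5 (chromosome 5, 98254184 to 98277033, plus strand) the Suz12 region spanned 3713 bp and the H3K27me3 region 8880 bp, and both held the gene's start. At Otx2 (chromosome 14, 48656781 to 48667644, minus strand) the Suz12 region spanned 14416 bp and covered 63.0% of the gene with its outer start. Pou3f1 (chromosome 4, 124657646 to 124660655) lay whole within a Suz12 region of 4740 bp and an H3K27me3 region of 8838 bp. Lef1 (chromosome 3, 131110297 to 131224357, plus strand) had its start in a Suz12 region of 8947 bp and in the second of 2 H3K27me3 regions, whose spans of 6738 and 5059 bp are separated just upstream of that start.

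**Figure D1:**
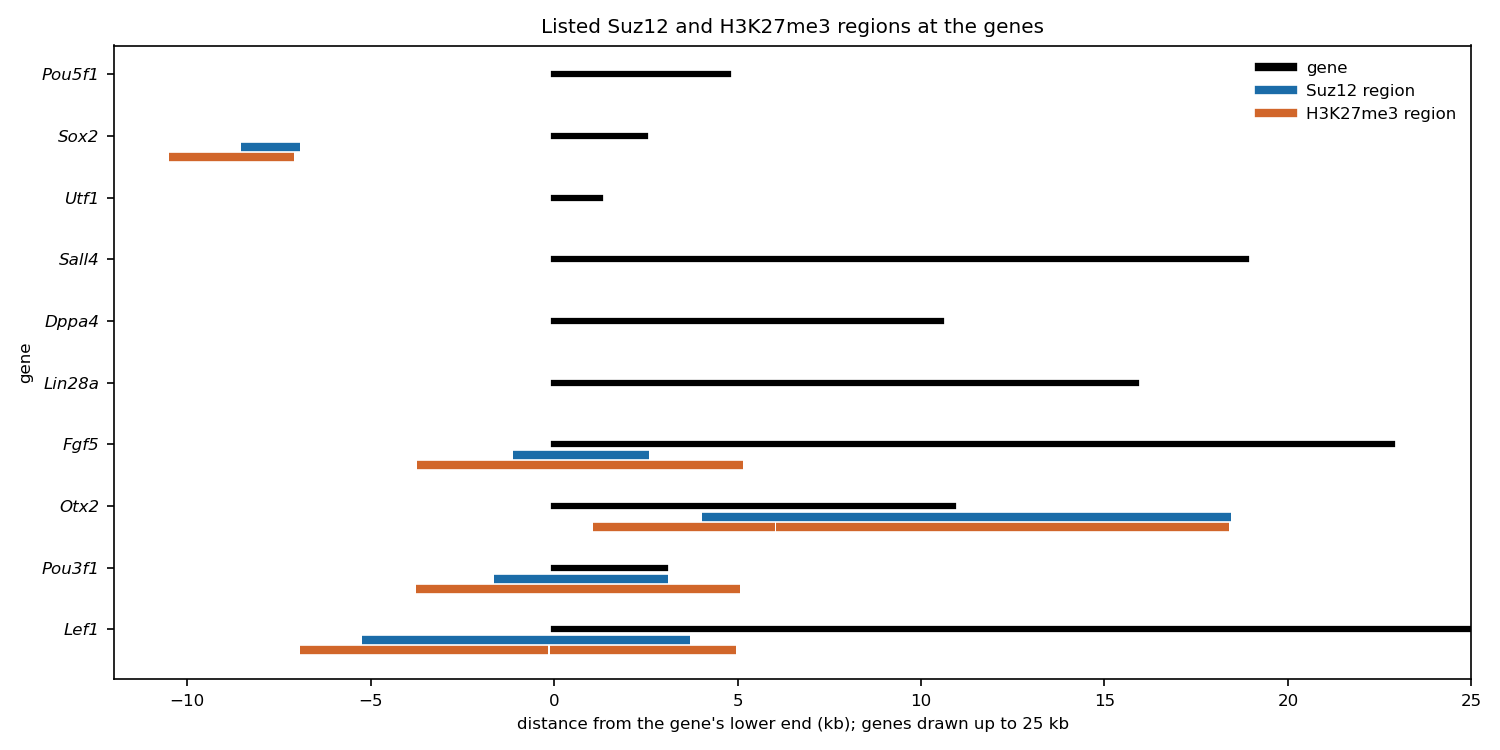
Listed regions at the 10 genes, as distance in kb from each gene's lower end on the chromosome; black bars are genes (cut at the right edge for Lef1), blue bars Suz12 regions and orange bars H3K27me3 regions. All 4 formative genes overlap both kinds of region, and of the core genes only Sox2 has any within the 10000 bp searched, 6931 bp or more from the gene.

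The 250 bases upstream of the outermost RefSeq start (GRCm38.p6, 5′ to 3′ on the gene's strand) are shown for 3 formative genes, because these windows overlap a region of each kind, and for Sox2 as a core gene whose window does not. CpG dinucleotides are in capitals. The windows are Fgf5 chr5:98253934-98254183 (plus), Otx2 chr14:48667645-48667894 (minus), Lef1 chr3:131110047-131110296 (plus) and Sox2 chr3:34649745-34649994 (plus).
Fgf5: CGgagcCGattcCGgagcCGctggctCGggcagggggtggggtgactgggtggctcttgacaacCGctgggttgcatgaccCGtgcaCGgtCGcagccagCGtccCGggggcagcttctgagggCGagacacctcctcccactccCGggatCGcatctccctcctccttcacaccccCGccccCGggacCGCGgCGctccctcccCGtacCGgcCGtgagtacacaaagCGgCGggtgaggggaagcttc
Otx2: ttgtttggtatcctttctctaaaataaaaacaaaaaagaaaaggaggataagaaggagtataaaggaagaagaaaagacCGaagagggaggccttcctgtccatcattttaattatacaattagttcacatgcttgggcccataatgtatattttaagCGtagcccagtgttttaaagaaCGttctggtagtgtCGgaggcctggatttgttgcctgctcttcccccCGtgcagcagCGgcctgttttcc
Lef1: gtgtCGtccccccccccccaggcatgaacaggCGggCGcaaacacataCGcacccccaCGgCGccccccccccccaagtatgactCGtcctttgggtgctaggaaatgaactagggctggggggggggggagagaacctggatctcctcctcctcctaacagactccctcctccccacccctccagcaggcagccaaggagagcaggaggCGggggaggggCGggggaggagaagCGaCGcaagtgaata
Sox2: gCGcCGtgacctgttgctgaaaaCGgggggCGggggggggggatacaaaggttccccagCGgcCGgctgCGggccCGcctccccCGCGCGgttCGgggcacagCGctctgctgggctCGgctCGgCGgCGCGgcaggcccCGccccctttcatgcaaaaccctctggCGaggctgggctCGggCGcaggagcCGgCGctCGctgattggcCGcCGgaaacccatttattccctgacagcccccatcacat

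The windows held 24 CpG in Fgf5, 6 in Otx2, 11 in Lef1 and 27 in Sox2, against a median of 6 over 32851 RefSeq promoter windows of the same length. Of those windows, 88.0% held fewer than Fgf5, 49.6% fewer than Otx2, 64.4% fewer than Lef1 and 91.4% fewer than Sox2. A high CpG count was thus shared by Fgf5 and Sox2, although only the first lay in the listed regions. Sox2 held the most among the core genes with a window. The outermost windows of Pou5f1 and Utf1, not shown, held 8 and 14 CpG, and a Lin28a window not at the outermost start held 7. Of all windows, 57.0%, 70.6% and 53.7% held fewer than these. Searched on both strands, the octamer ATGCAAAT, the SOX motif CATTGTT and the TCF/LEF motif CTTTGAT occur in 1.6%, 3.29% and 3.21% of all windows, and none of the 4 windows shown holds any of them, which says only that these letters are not there. RefSeq windows were found for 7 of the 10 genes; Sall4, Dppa4 and Pou3f1 had none in the table used.

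Across the 13 comparisons, the authors' deposited tables called 39 of 130 gene-by-comparison results at an adjusted p under 0.05. These were 22 of 78 for the core genes and 17 of 52 for the formative genes. Over all genes tested, calls ran from 0 of 20263 in ESC Deltaex4 to 5600 of 16253 in NP KO-S against KO. Comparisons share control libraries, and NP KO is set against WT in 2 tables, so these are not 130 separate results. In ESC the calls were few. CSex4 had 1 of the 10 genes higher, where 1.72% of all genes tested were higher, and Deltaex4 had none called, where 0.0% of all genes were called. At an unadjusted p under 0.05 the authors' deposited table for Deltaex4 had 135 of 20263 genes and 1 of the 10, Otx2. That share is far below the 0.05 that genes with no effect would give, so the absence of calls there says little. Its paired libraries deviated in opposite ways (r = -0.55). In limma no gene was called there, with 1174 genes at an unadjusted p under 0.05 with no replicate block and 1019 with it. KO had 3 genes lower, against 7.27% of all genes, KO-L had 1 higher, against 1.46%, and KO-S had 4 lower, against 3.63%. The libraries labelled KO-L3D had 3 lower, against 10.1%, and KO-S3D had 1 lower, against 1.18%.

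In NP the calls were more frequent, for all genes as well. CSex4 had 3 of the 10 genes higher, against 4.08% of all genes tested, and Deltaex4 had 1 higher, against 0.0289%. KO had 1 higher and 2 lower than the first WT pair, against 11.6% and 9.85% of all genes. The second WT pair had 2 higher and 4 lower than KO, against 15.6% and 17.3%. KO-L had 6 higher and 1 lower than KO, against 10.9% and 13.8%, and KO-S had 4 higher and 2 lower than KO, against 16.4% and 18.0%. Otx2, the gene called in NP Deltaex4, was 1 of 5 genes called higher in that table.

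**Figure D2:**
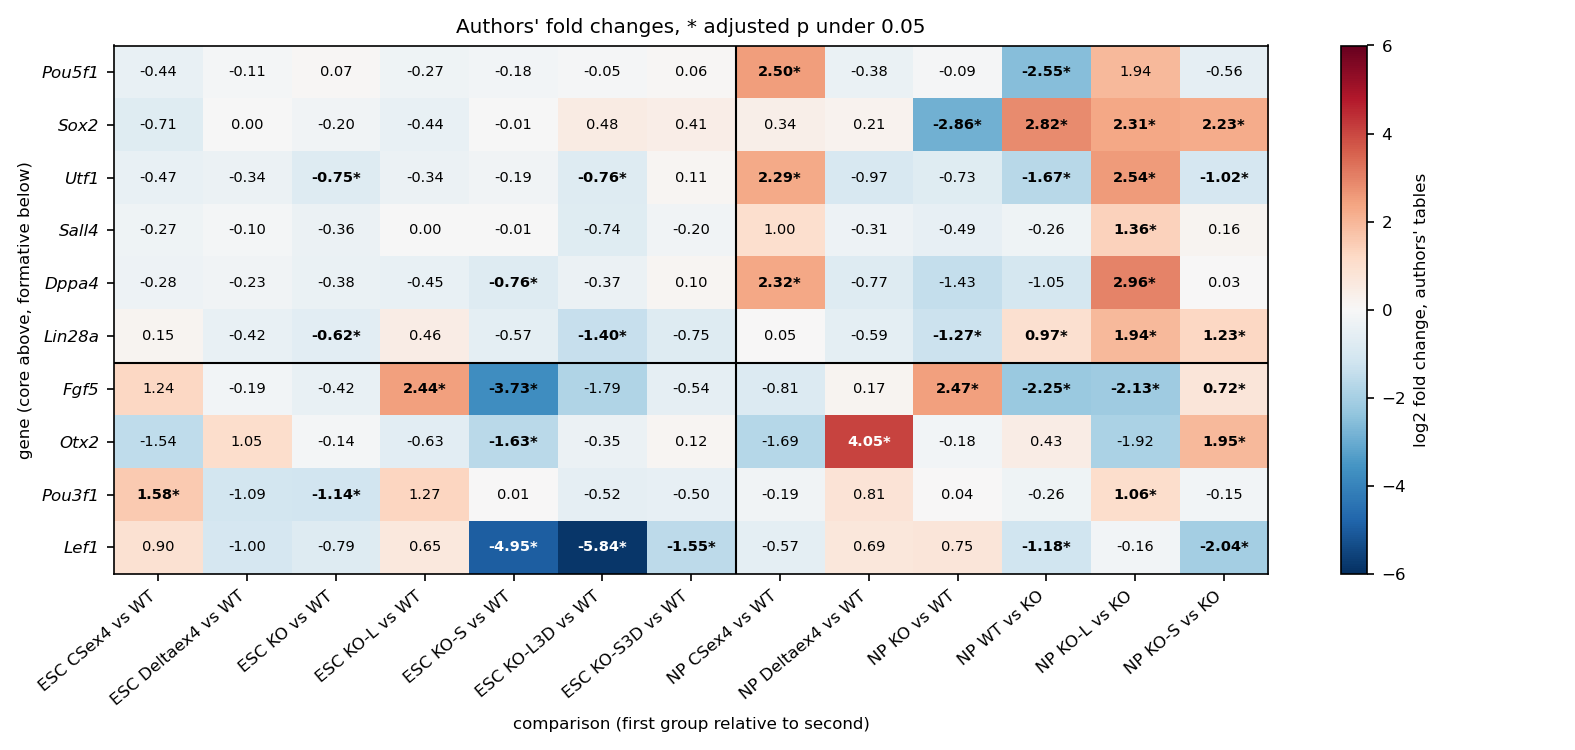
Log2 fold changes from the authors' deposited tables for the 10 genes (rows, core above the line) in the 13 comparisons (columns, ESC left of the line, NP right), with an asterisk at an adjusted p under 0.05. The deepest falls are those of Lef1 in ESC KO-L3D (-5.84) and KO-S (-4.95), the largest rise is that of Otx2 in NP Deltaex4 (4.05), and the core genes have most of their calls in NP.

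In ESC, Pou5f1 and Sox2 were called in none of the 7 comparisons. Pou5f1 levels were 1090, 1089 and 947 in WT (1042 ± 81.9, SD, n = 3), and the other 15 libraries lay between 662 in CSex4 A and 1334 in KO-S3D B, on both sides of WT. Its log2 fold changes in the authors' deposited tables ran from -0.44 in CSex4 to 0.07 in KO.

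Sox2 levels were 436, 372 and 402 in ESC WT (403 ± 31.9, SD, n = 3). They were 197 and 307 in CSex4, below all WT libraries, and 696 and 473 in KO-L3D, above them. Neither difference was called in the authors' deposited tables, with log2 fold changes of -0.71 (SE 0.33, adjusted p = 0.347) and 0.48 (SE 0.28, adjusted p = 0.24). Sall4 was called in no ESC comparison either, with levels of 293 to 370 in WT and of 155 to 384 elsewhere.

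Utf1, a chromatin factor of undifferentiated cells, fell in ESC KO and in the libraries labelled KO-L3D, whose Suz12 level is that of KO. Its levels were 308, 310 and 244 in WT and 154, 184 and 173 in KO, with no overlap. They were 202 and 172 in KO-L3D, again below every WT library. The log2 fold change was -0.75 in KO (SE 0.19, adjusted p = 0.000897) and -0.76 in KO-L3D (SE 0.28, adjusted p = 0.0368) in the authors' deposited tables. In limma fits to the recovered reads, KO gave an adjusted p of 0.0426 with no replicate block and 0.0591 with the block, and KO-L3D gave 0.0942 and 0.107, so that call was lost in both. Leaving out 1 library ended the KO call in the limma fit with no replicate block for 5 of the 6 libraries, with adjusted p from 0.0696 without KO B to 0.122 without WT B, and 0.097 without WT A.

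Lin28a, which keeps let-7 microRNAs low, fell in ESC KO and in the libraries labelled KO-L3D (Suz12 at the KO level). Its levels were 579, 738 and 682 in WT, 438, 423 and 439 in KO, and 271 and 237 in KO-L3D, so both groups lay below all WT libraries. KO-L had 933 and 872, above all WT libraries. The authors' deposited tables gave log2 fold changes of -0.62 in KO (SE 0.18, adjusted p = 0.00479), -1.40 in KO-L3D (SE 0.29, adjusted p = 3.97e-05) and 0.46 in KO-L (SE 0.27, adjusted p = 0.643). The limma fits kept the KO-L3D call (adjusted p = 0.0025 with no replicate block, 0.00866 with it) and lost the KO call (0.143 and 0.183). Lin28a levels of 460 and 402 (KO-S) and of 323 and 457 (KO-S3D) also lay below all WT libraries. Neither group was called in the authors' deposited tables, with -0.57 (SE 0.27, adjusted p = 0.196) and -0.75 (SE 0.34, adjusted p = 0.249).

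Dppa4 was called in 1 ESC comparison only. Its levels were 169, 165 and 151 in WT and 103 and 90.6 in KO-S, with no overlap, and the authors' deposited table gave -0.76 (SE 0.26, adjusted p = 0.0484). The limma adjusted p was 0.0722 with no replicate block and 0.0999 with it. Dppa4 levels of 116, 143 and 116 in KO, 129 and 116 in KO-L, 141 and 124 in KO-L3D, and 135 and 146.5 in Deltaex4 also lay below all WT libraries, and none of these groups was called. In KO-S3D, whose levels were 143 and 220.3, the log2 fold change was 0.10 (adjusted p = 0.947) in that deposited table of the authors.

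Markers of other cell types moved with several of these ESC groups, and their part in the results was not tested. The summed level of 4 trophoblast markers (Cdx2, Elf5, Hand1, Esx1) was 82.9 and 322 in KO-L3D and 35.3 to 66.4 in KO, against 2.69 to 5.89 in WT. 4 of 4 were higher in KO-L3D, where 8.22% of all genes tested were higher, and 3 of 4 in KO, where 11.01% were, in the authors' deposited tables. In KO-S3D that sum was 261 in A and 7.35 in B, with 1 of 4 higher, against 2.05% of all genes. In CSex4 it was 13.7 and 9.16, with 1 of 4 higher, and in KO-L 11.7 and 30.2, with 2 of 4 higher. Only 3 of the 4 had an adjusted p in each of these 2 groups. Elf5 had no read in WT A. The endoderm marker sum was 109 and 147 in KO-S against 2.65 to 65.0 in WT, with none of the 4 markers called, and Sox17 had no read in WT B. The mesenchyme marker sum was 88.9 and 84.7 in KO-L and 65.5 and 39.5 in CSex4, against 10.7 to 41.4 in WT, with 3 of 4 markers higher in each, where 1.46% and 1.72% of all genes were higher. It was 3.87 and 5.78 in KO-L3D and 17.0 and 8.03 in KO-S3D. There 2 of 4 markers were lower in each, where 10.1% and 1.18% of all genes were lower. CSex4 also had an ESC marker sum of 1160 and 1770 against 2358 to 3004 in WT, with 2 of 4 lower, where 0.695% of all genes were lower. Its neural marker sum was 478 and 271 against 74.7 to 201 in WT, and that of KO-L was 286 and 230. None was called in either group, but only 4 of the 8 neural markers had an adjusted p in each.

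**Figure D3:**
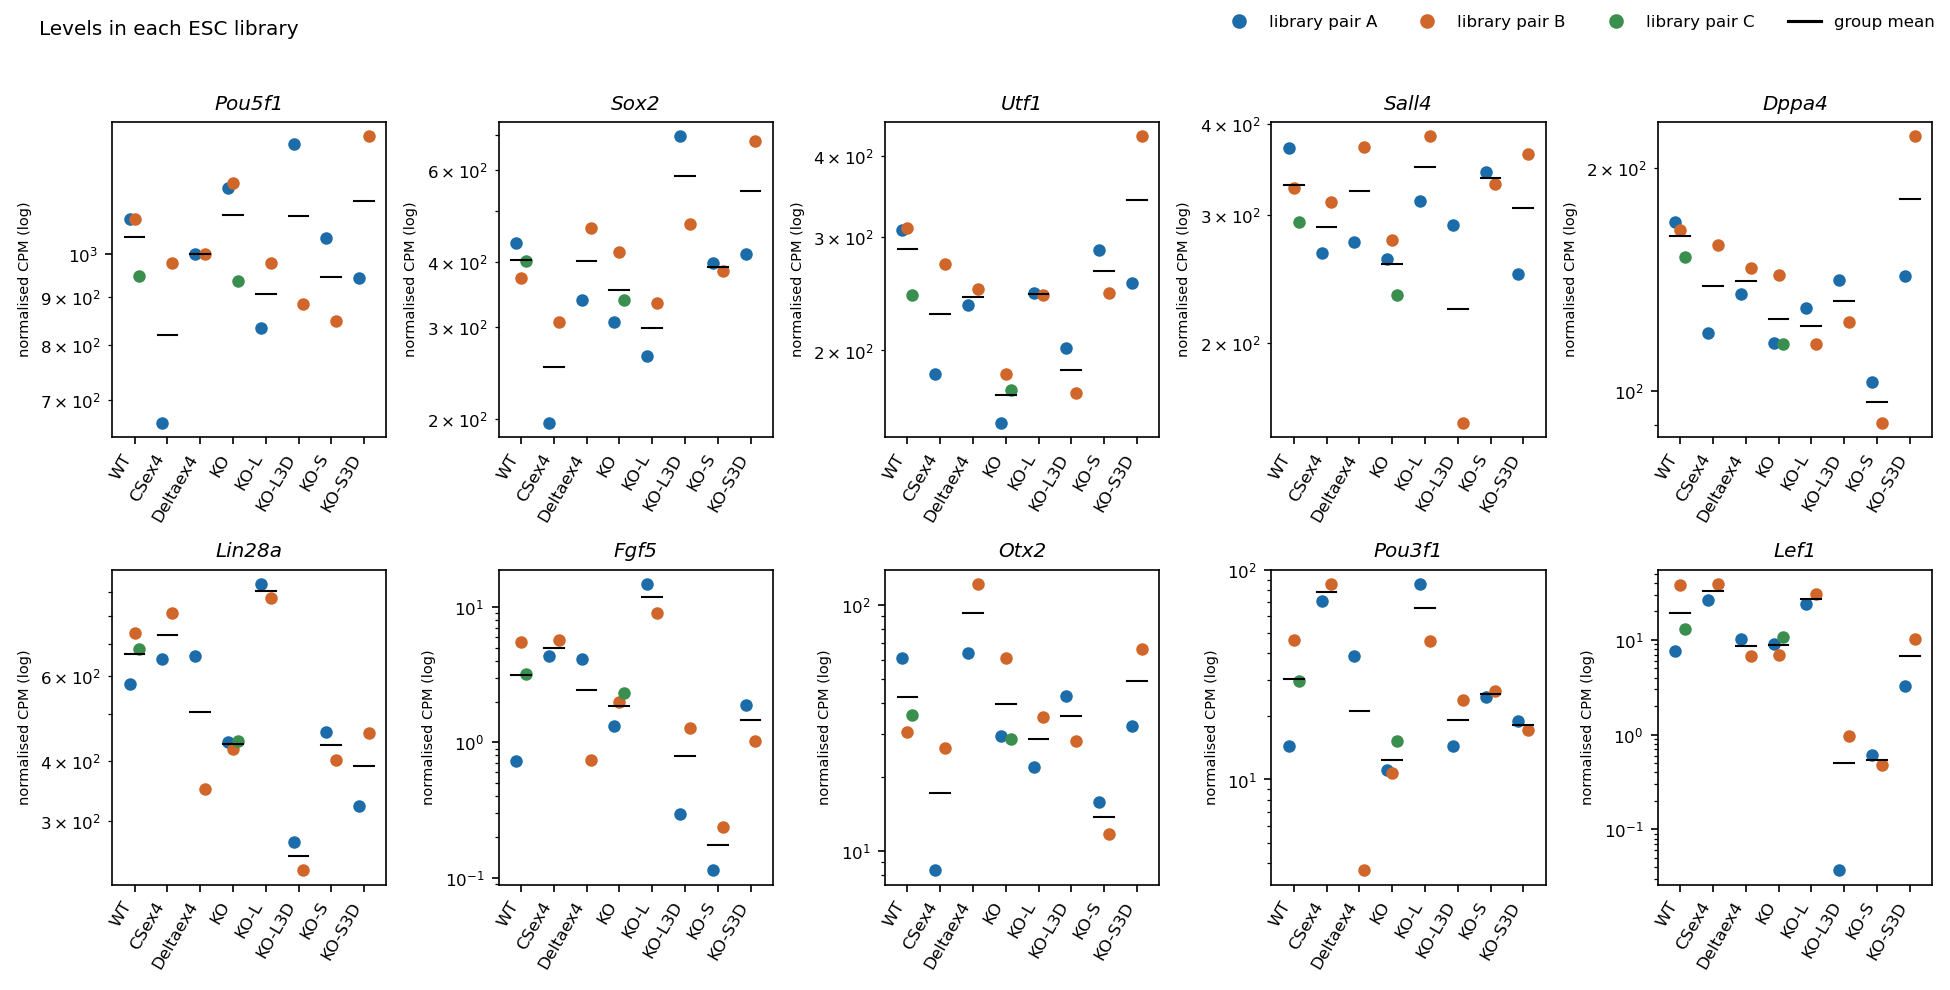
Normalised CPM (log axis) of the 10 genes in each of the 18 ESC libraries by group; point colours are the library pairs A, B and C, and black lines are group means. The core genes lie within a narrow range in most groups, while Lef1 falls to 0.0368 in KO-L3D A from 7.59 to 37.7 in WT, and the 3 WT libraries themselves spread widely for Fgf5, Pou3f1 and Lef1.

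The formative genes varied among the ESC WT libraries far more than the core genes. The highest WT library exceeded the lowest 7.46-fold for Fgf5, 4.97-fold for Lef1, 3.19-fold for Pou3f1 and 1.99-fold for Otx2, against at most 1.27-fold for any core gene. WT B had the highest Fgf5, Pou3f1 and Lef1 and the lowest Otx2, and WT A had the lowest Fgf5, Pou3f1 and Lef1 and the highest Otx2. WT A is also the library with the endoderm markers, and 6 of the 7 ESC tables rest on the WT libraries A and B, since WT C has no partner there. Results for formative genes in ESC therefore depend on which WT library is used, as shown gene by gene.

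Lef1, the Wnt effector, fell in KO-S, in KO-S3D and in the libraries labelled KO-L3D (Suz12 at the KO level). Its levels were 7.59, 37.7 and 12.996 in WT (A, B and C; 19.4 ± 16.1, SD, n = 3), 0.605 and 0.473 in KO-S, from 16 and 12 reads, and 0.0368 and 0.979 in KO-L3D, from 1 and 32 reads. Neither group overlaps WT. In KO-S3D the levels were 3.24 and 10.3, and the second lies above WT A. KO-S3D A, with 3.24, is also the library with the trophoblast marker sum of 261, and its endoderm marker sum was 60.9 against 18.9 in B; their part in this result was not tested.

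The authors' deposited tables gave Lef1 log2 fold changes of -4.95 in KO-S (SE 0.57, adjusted p = 2.89e-15), -5.84 in KO-L3D (SE 0.56, adjusted p = 3.02e-22) and -1.55 in KO-S3D (SE 0.47, adjusted p = 0.0366). The first 2 calls held in the limma fits, at adjusted p of 0.00304 and 0.000517 with no replicate block and of 0.00277 and 0.000531 with it, and the third did not (0.0717 in each). Without KO-S B, the limma adjusted p for KO-S was 0.0643 with no replicate block. Leaving out 1 library, the log2 ratio of group means for KO-S ran from -5.56 without WT A to -4.25 without WT B. For KO-L3D it ran from -9.04 without KO-L3D B, which leaves a library with 1 read, to -4.31 without KO-L3D A. For KO-S3D it ran from -2.58 without KO-S3D B to -0.61 without WT B.

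In the other ESC groups Lef1 levels were 23.8 and 30.3 in KO-L, 26.1 and 38.9 in CSex4, 10.2 and 6.85 in Deltaex4, and 9.14, 6.88 and 10.8 in KO. Each of these groups had at least 1 library within the WT range, and none was called. Of these, KO had a log2 fold change of -0.79 (SE 0.45, adjusted p = 0.236) in the authors' deposited table.

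Fgf5, the growth factor of the formative epiblast, was low in all ESC. Its levels were 0.734, 5.48 and 3.21 in WT (3.14 ± 2.37, SD, n = 3), 14.7 and 8.97 in KO-L, and 0.114 and 0.236 in KO-S, from 3 and 6 reads. KO-L lay above and KO-S below every WT library. The log2 fold change was 2.44 in KO-L (SE 0.69, adjusted p = 0.0271) and -3.73 in KO-S (SE 0.94, adjusted p = 0.00224) by the authors' deposited tables.

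The Fgf5 call in KO-L had a limma adjusted p of 0.0332 with no replicate block and was lost with it (0.085), and the call in KO-S held in both (0.0165 and 0.0318). With no replicate block, limma lost the KO-L call without KO-L A (adjusted p = 0.115), KO-L B (0.0907), WT A (0.192) or WT C (0.0856). It lost the KO-S call without KO-S A (0.136), KO-S B (0.118) or WT B (0.0525). The log2 ratio of group means ran from 1.45 without WT A to 2.59 without WT B in KO-L, and from -4.79 without KO-S B to -3.49 without WT B in KO-S. Levels in KO-L3D were 0.294 and 1.29, in part below WT, with a log2 fold change of -1.79 that was not called (SE 0.80, adjusted p = 0.103) in the authors' deposited table.

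Otx2, a factor that opens formative enhancers, was called lower in ESC KO-S. Its levels were 60.6, 30.5 and 35.6 in WT and 15.7 and 11.7 in KO-S, with no overlap. The authors' deposited table gave -1.63 (SE 0.32, adjusted p = 2.44e-05), and the limma adjusted p was 0.0395 with no replicate block and 0.0331 with it. The log2 ratio of group means was -1.62 with all libraries and -1.27 without WT A. With no replicate block, limma lost the call without WT A (adjusted p = 0.0893), WT C (0.0587), KO-S A (0.139) or KO-S B (0.256). Otx2 levels of the exon 4 lines lay on opposite sides of WT without overlap, at 8.33 and 26.2 in CSex4 and 64.0 and 121.6 in Deltaex4. Neither passed the authors' test, with -1.54 (SE 0.51, adjusted p = 0.0781) and 1.05 (SE 0.51, adjusted p = 1) in the authors' deposited tables.

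Pou3f1, a POU factor of primed and neural cells, rose in ESC CSex4 and fell in ESC KO. Its levels were 14.5, 46.3 and 29.4 in WT, 70.9 and 85.6 in CSex4, and 11.2, 10.8 and 15.3 in KO. CSex4 lay above all WT libraries, and KO overlapped WT A. The log2 fold change was 1.58 in CSex4 (SE 0.39, adjusted p = 0.00663) and -1.14 in KO (SE 0.33, adjusted p = 0.00585) by the authors' deposited tables.

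The Pou3f1 call in CSex4 had a limma adjusted p of 0.0494 with no replicate block and 0.0869 with it, and that in KO was lost in both (0.125 and 0.176). With no replicate block, limma lost the CSex4 call without CSex4 A (adjusted p = 0.734), CSex4 B (0.114), WT A (0.203) or WT C (0.106). The neural marker sum of 478 and 271 in CSex4 stands beside this result, and its part in it was not tested. The log2 ratio of group means in CSex4 ran from 1.05 without WT A to 1.83 without WT B, and in KO from -1.61 without WT A to -0.82 without WT B. The Deltaex4 libraries themselves differed, with Pou3f1 levels of 39.0 and 3.68. KO-L had 85.6 and 45.9, beside a neural marker sum of 286 and 230.

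All 10 genes were measured in NP, and the 6 core genes and Otx2, Pou3f1 and Lef1 were lower in NP WT than in ESC WT without overlap. The mean level was 42.3-fold lower for Pou5f1, 30.2-fold for Utf1, 21.6-fold for Otx2, 15.7-fold for Dppa4, 6.37-fold for Lin28a, 5.95-fold for Pou3f1, 4.46-fold for Sall4, 4.37-fold for Lef1 and 2.88-fold for Sox2. Fgf5 levels overlapped, at a ratio of 1.38. The gap for Lef1 is narrow, 7.59 in the lowest ESC WT library against 7.15 in the highest NP WT library. This setting of cell types side by side has no test, since no deposited table compares them.

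NP WT libraries differed several-fold for most core genes. Pou5f1 levels were 24.1 and 62.1 in the first pair and 6.17 and 6.30 in the second. The highest library exceeded the lowest 10.1-fold for Pou5f1, 11.5-fold for Dppa4, 8.45-fold for Utf1 and 3.78-fold for Lin28a, but 1.52-fold for Sox2. First pair B had the highest level of Pou5f1, Utf1, Sall4, Dppa4 and Lin28a among the 4 and the lowest of Sox2, Otx2 and Pou3f1.

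**Figure D4:**
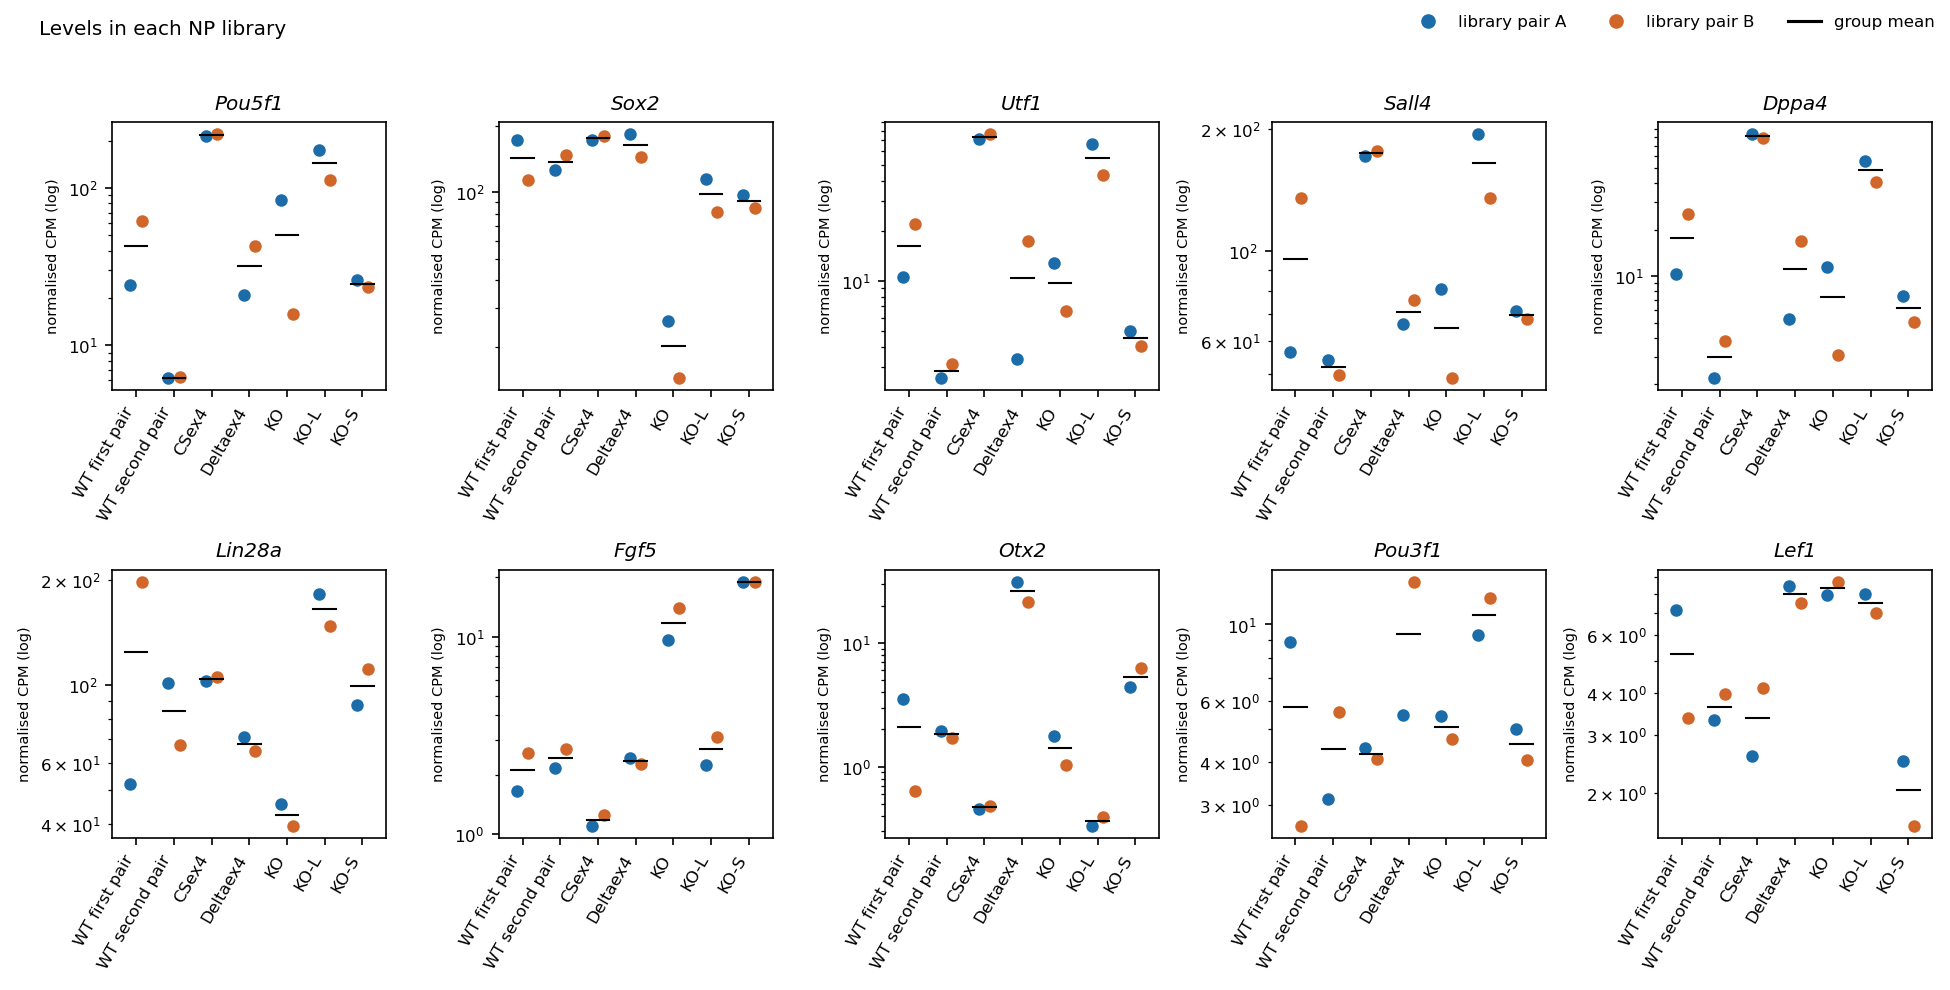
Normalised CPM (log axis) of the 10 genes in each of the 14 NP libraries by group; point colours are the library pairs A and B, and black lines are group means. Pou5f1, Utf1 and Dppa4 are high in CSex4 and KO-L, Sox2 is low in KO (26.0 and 14.4), Fgf5 is high in KO and KO-S, and Otx2 is high in Deltaex4 (31.1 and 21.4).

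In NP CSex4, Pou5f1, Utf1 and Dppa4 rose. Pou5f1 levels were 215 and 220.1, Utf1 levels 71.1 and 76.1, and Dppa4 levels 82.8 and 77.9, each above all 4 NP WT libraries. The log2 fold changes were 2.50 for Pou5f1 (SE 0.37, adjusted p = 5.75e-09), 2.29 for Utf1 (SE 0.36, adjusted p = 5.41e-08) and 2.32 for Dppa4 (SE 0.39, adjusted p = 3.41e-07) in the authors' deposited table. The 3 calls held in the limma fits, at adjusted p of 0.00327, 0.00194 and 0.00131 with no replicate block. Without NP WT first pair B, the log2 ratios of group means were 3.18, 2.82 and 2.96, and without first pair A they were 1.81, 1.75 and 1.68. The limma adjusted p for Pou5f1 was 0.0943 without first pair A, with no replicate block.

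The other 3 core genes were not called in NP CSex4. Sall4 levels of 171 and 177 lay above all WT libraries, with a log2 fold change of 1.00 that was not called (SE 0.36, adjusted p = 0.0837) by the authors' deposited table, with a limma adjusted p of 0.0474 with no replicate block and 0.0744 with it. Sox2 (172.5 and 179) and Lin28a (103 and 105.5) had log2 fold changes of 0.34 and 0.05 there. Alongside, the ESC marker sum, which includes Pou5f1 itself, was 905 and 920.4 in CSex4 against 98.3 and 242 in the first WT pair. The neural marker sum was 371 and 372 against 1121 and 381. Whether undifferentiated cells were part of the CSex4 libraries was not tested.

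In NP Deltaex4, Otx2 was the only one of the 10 genes called. Its levels were 31.1 and 21.4, against 3.55 and 0.633 in the first WT pair and 1.96 and 1.69 in the second, with no overlap. The authors' deposited table gave a log2 fold change of 4.05 (SE 0.55, adjusted p = 2.16e-09). In the limma fits, which pool the spread of all 32 libraries, the log2 fold change was 4.12 with no replicate block and 4.04 with it, and the adjusted p was 0.15 and 0.23. The log2 ratio of group means ran from 2.89 without first pair B to 5.38 without first pair A. The other 9 genes had log2 fold changes between -0.97 (Utf1) and 0.81 (Pou3f1), each with an adjusted p of 1 by the authors' deposited table.

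In NP KO, Sox2 fell against both WT pairs. Its levels were 26.0 and 14.4 in KO, against 173, 113, 126 and 147 in WT. The authors' deposited tables gave -2.86 for KO against the first WT pair (SE 0.34, adjusted p = 3.29e-15) and 2.82 for the second WT pair against KO (SE 0.32, adjusted p = 3.95e-17), and both held in the limma fits (adjusted p of 2.36e-06 and 1.65e-06 with no replicate block). Sox2 is also a neural precursor gene, and the neural marker sum was 94.8 and 110 in NP KO against 381 to 1327 in WT. The endoderm marker sum was 269 and 504 in KO against 58.6 to 213 in WT, and the trophoblast marker sum 82.8 and 61.8 against 12.9 to 30.9. By the authors' deposited tables, KO had 2 of 4 trophoblast markers higher than the first WT pair, against 11.6% of all genes, and the second WT pair had 4 of 4 lower than KO, against 17.3%. The part of these markers in the KO results was not tested. 7 of 8 neural precursor markers were lower in the authors' deposited table for KO against WT, where 9.85% of all genes were lower, with a list median log2 fold change of -4.93 against -0.01 for all genes tested.

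Fgf5 rose in NP KO against both WT pairs, with levels of 9.58 and 13.9 against 1.65 to 2.70 in WT. The log2 fold change was 2.47 against the first pair (SE 0.51, adjusted p = 2.12e-05), and the second pair had -2.25 relative to KO (SE 0.44, adjusted p = 3.7e-06), by the authors' deposited tables. The limma fits kept both calls (adjusted p of 0.00193 and 0.00175 with no replicate block). Lin28a fell in KO with -1.27 against the first pair (SE 0.46, adjusted p = 0.0317) and was 0.97 higher in the second pair than in KO (SE 0.28, adjusted p = 0.00255), as the authors' deposited tables have it. Its first-pair levels were 52.2 and 198 against 45.6 and 39.5 in KO, and without first pair B the limma value was -0.30 (adjusted p = 0.451). Without KO B, the limma adjusted p against the first pair was 0.0846. For the second pair it was 0.0654 with the replicate block, and with no block 0.101 without KO A, 0.174 without KO B and 0.285 without second pair A. Dppa4, at 11.5 and 3.10 in KO against 10.3 and 25.1 in the first pair, had -1.43 (SE 0.62, adjusted p = 0.0851) by the authors' deposited table, with a limma adjusted p of 0.0391 with no replicate block and 0.0472 with it. Against the second pair the sign was the other way. That pair had Dppa4 levels of 2.18 to 3.79 and a log2 fold change of -1.05 relative to KO, which the authors' deposited table did not call.

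For Pou5f1 and Utf1, as for Dppa4, the NP KO values differed between the 2 WT pairs, and that difference was not tested. Pou5f1 levels in KO were 84.5 and 15.8, 1 above and 1 below both libraries of the first pair (24.1 and 62.1), and both above the second pair (6.17 and 6.30). The log2 fold change of KO against the first pair was -0.09 (SE 0.61, adjusted p = 0.949), while the second pair against KO had -2.55 (SE 0.46, adjusted p = 4.08e-07), in the authors' deposited tables. Utf1 had -0.73 (SE 0.53, adjusted p = 0.363) and -1.67 (SE 0.50, adjusted p = 0.00371) in the same 2 deposited tables of the authors, with KO levels of 12.7 and 6.56. Without KO A, the log2 ratio for Pou5f1 in the second pair was -1.34, and the limma adjusted p with no replicate block was 0.103. The Utf1 call for the second pair was lost in that fit without KO A (0.255), second pair A (0.178) or second pair B (0.0927). Lef1 was lower in the second pair than in KO by the authors' deposited table (-1.18, SE 0.46, adjusted p = 0.0343), a call the limma fits lost (0.148 with no replicate block, 0.123 with it).

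Most core genes were higher in NP KO-L than in NP KO. Levels in KO-L were 115 and 81.5 for Sox2, 66.7 and 43.3 for Utf1, 194 and 135 for Sall4, 55.9 and 40.6 for Dppa4, and 182 and 147 for Lin28a. Each lies above both KO libraries. The log2 fold changes in the authors' deposited table were 2.31 for Sox2 (SE 0.22), 2.54 for Utf1 (SE 0.25), 1.36 for Sall4 (SE 0.20), 2.96 for Dppa4 (SE 0.32) and 1.94 for Lin28a (SE 0.20), with adjusted p from 3.75e-24 for Sox2 to 7.75e-11 for Sall4.

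Each of these 5 calls held in the limma fits, with adjusted p of at most 0.00365 with no replicate block and 0.00756 with it. With no replicate block, the Sall4 call was lost without KO B (0.0739) or KO-L A (0.0695). Pou5f1 levels of 176 and 113 gave 1.94 (SE 0.82, adjusted p = 0.0664) by the authors' deposited table, with a limma adjusted p of 0.00628 with no replicate block. KO A set the size of several ratios: without it, that of Dppa4 was 3.96 and that of Utf1 3.07, and without KO B they were 2.08 and 2.11. The ESC marker sum, which includes Pou5f1 itself, was 667 and 454 in KO-L against 226 and 50.8 in KO. The neural marker sum was 324 and 436 against 94.8 and 110. The mesenchyme marker sum (Col1a1, Col1a2, Col3a1, Pdgfra) was 643 and 744 against 163 and 184. By the authors' deposited table, 3 of 4 ESC markers were higher and none lower. Of 8 neural markers 6 were higher and 1 lower, and of 4 mesenchyme markers 3 were higher and 1 lower. Of all genes, 10.9% were higher. The endoderm marker sum was 124 and 183 against 269 and 504, with 3 of 4 markers lower, where 13.8% of all genes were lower. The part of these cell types in the result was not tested.

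In NP KO-L, Fgf5 fell relative to KO, with levels of 2.25 and 3.11 against 9.58 and 13.9. The authors' deposited table gave -2.13 (SE 0.39, adjusted p = 6.79e-07), and the call held in the limma fits (0.00937 with no replicate block, 0.0144 with it). With no block it was lost without KO B (0.0597) or KO-L A (0.115). Pou3f1, at 9.35 and 11.9 against 5.44 and 4.67, rose in the authors' deposited table (1.06, SE 0.38, adjusted p = 0.0257) but not in the limma fits (0.415 and 0.456). Otx2, at 0.330 and 0.394 against 1.77 and 1.03, had -1.92 (SE 1.01, adjusted p = 0.168) by the authors' deposited table.

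In NP KO-S, Sox2 and Lin28a rose relative to KO. Levels in KO-S were 97.2 and 84.6 for Sox2 and 88.0 and 111 for Lin28a, each above both KO libraries. The log2 fold changes were 2.23 for Sox2 (SE 0.22, adjusted p = 3.33e-22) and 1.23 for Lin28a (SE 0.20, adjusted p = 5.95e-09) by the authors' deposited table, and both held in the limma fits (6.08e-05 and 0.0234 with no replicate block). The Lin28a call was lost in that fit without any 1 of the 4 libraries, with adjusted p from 0.0568 without KO-S A to 0.126 without KO-S B. Utf1, at 4.95 and 4.07 against 12.7 and 6.56 in KO, fell by the authors' deposited table (-1.02, SE 0.38, adjusted p = 0.0246). That call was lost in the limma fits (0.223 and 0.252), and without KO A the log2 ratio was -0.54.

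Of the formative genes in NP KO-S, Fgf5 and Otx2 rose and Lef1 fell in the authors' deposited table. Fgf5 levels were 18.9 and 18.9 against 9.58 and 13.9 in KO, Otx2 levels 4.44 and 6.22 against 1.77 and 1.03, and Lef1 levels 2.49 and 1.59 against 7.94 and 8.67, none with overlap. The log2 fold changes were 0.72 for Fgf5 (SE 0.28, adjusted p = 0.0341), 1.95 for Otx2 (SE 0.55, adjusted p = 0.00206) and -2.04 for Lef1 (SE 0.44, adjusted p = 3.35e-05) in the authors' deposited table. The limma adjusted p were 0.157, 0.171 and 0.0571 with no replicate block and 0.225, 0.159 and 0.0468 with it, so that only the Lef1 call held, and only with the block. Alongside, the neural marker sum was 508 and 559 in KO-S against 94.8 and 110 in KO, with 8 of 8 markers higher, where 16.4% of all genes were higher. The endoderm marker sum was 152 and 204 against 269 and 504, and the trophoblast marker sum 21.2 and 24.6 against 82.8 and 61.8, each with 4 of 4 lower, where 18.0% of all genes were lower. Their part in these results was not tested.

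Whether effects differed between lines was tested as the difference of 2 log2 fold changes from the authors' deposited tables over the root of the sum of their squared standard errors, with Benjamini-Hochberg adjustment over all genes. Lines set against the same control libraries share them, which this test ignores. The effects in ESC of KO-L and of the libraries labelled KO-L3D differed for 3 of the 10 genes, against 2.84% of all genes. The difference was 6.49 for Lef1 (95% interval 5.08 to 7.90), 4.23 for Fgf5 (2.15 to 6.31) and 1.86 for Lin28a (1.08 to 2.64), all higher in KO-L. Suz12 levels were 135 and 121 in KO-L but 93.6 and 60.5 in the libraries labelled KO-L3D, within the range of KO, so an effect of the 3D change and a lack of rescue RNA cannot be told apart. In the limma fits Sox2 and Pou3f1 differed as well (adjusted p = 0.0101 and 0.0177 with no replicate block). With no replicate block, limma called 37.9% of all genes for this difference.

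The effects of KO-S and KO-S3D in ESC differed for 1 of the 10 genes, Lef1, against 0.44% of all genes, by -3.40 (95% interval -4.85 to -1.95), so that the fall was deeper in KO-S. Their Suz12 levels were 146 and 144 against 176.5 and 356. Otx2 differed by -1.75 (-2.89 to -0.61, adjusted p = 0.268), and by the limma fit with no replicate block at an adjusted p of 0.0349. That fit called 15.5% of all genes for this difference. Long and short isoforms in ESC differed for Fgf5 by 6.17 (3.88 to 8.46) and for Lef1 by 5.60 (4.18 to 7.02), against 2.36% of all genes. No core gene differed there by this test, and the interval for Pou5f1 was -0.81 to 0.63. Lin28a had 1.04 (0.29 to 1.78, adjusted p = 0.156), with a limma adjusted p of 0.0337 with no replicate block and 0.0519 with it. With no block, limma called 27.6% of all genes for the 2 isoforms in ESC.

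In NP, long and short isoforms differed for 6 of the 10 genes, against 7.03% of all genes. Utf1, Dppa4 and Sall4 were higher with the long isoform, by 3.57 (95% interval 2.68 to 4.46), 2.93 (1.89 to 3.98) and 1.20 (0.64 to 1.76), and so was Lef1, by 1.88 (0.75 to 3.02). Fgf5 and Otx2 were lower with it, by -2.85 (-3.80 to -1.91) and -3.87 (-6.13 to -1.61). Fgf5 thus stood higher with the long isoform in ESC and lower with it in NP. In the limma fit with no replicate block, Otx2 (adjusted p = 0.0517) and Lef1 (0.102) were lost and Pou5f1 (0.00177) was added. That fit called 21.5% of all genes for this difference.

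**Figure D5:**
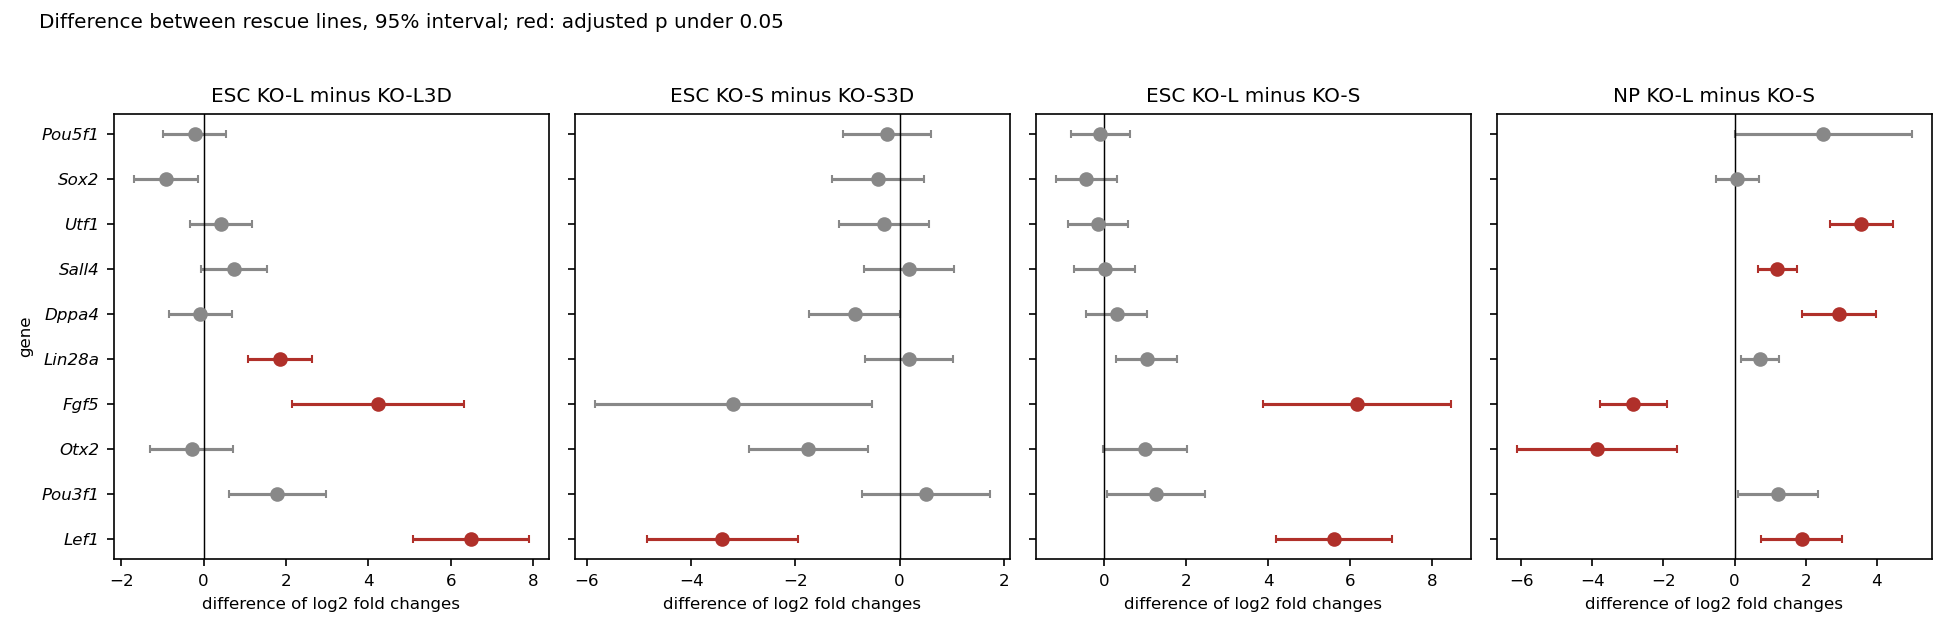
Difference between 2 rescue lines in log2 fold change for each gene, with 95% intervals; red points have an adjusted p under 0.05 over all genes. Lef1 and Fgf5 are higher with the long isoform than in the libraries labelled KO-L3D or with the short isoform in ESC, and in NP Utf1, Dppa4, Sall4 and Lef1 are higher and Fgf5 and Otx2 lower with the long isoform.

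The exon 4 lines differed in NP for 4 of the 10 genes, against 1.22% of all genes. Pou5f1, Utf1 and Dppa4 were higher in CSex4 than in Deltaex4, by 2.88, 3.26 and 3.09 on the log2 scale, and Otx2 was lower, by -5.74 (95% interval -7.89 to -3.59). All 4 held in the limma fits, where Sall4 was added (adjusted p = 0.00609 with no replicate block). With no replicate block, limma called 25.3% of all genes for this difference in NP. In ESC none of the 10 was called as differing between these lines in the test from the deposited values, against 0.0502% of all genes. 2 of them (Otx2 and Lef1) had an unadjusted p under 0.05 in that test. It uses the standard errors of ESC Deltaex4, where the authors called no gene. In the limma fits 3 differed: Otx2 (-2.60, adjusted p = 0.00466), Pou3f1 (2.71, adjusted p = 0.00889) and Lef1 (1.92, adjusted p = 0.0217), with no replicate block. For this difference limma called 17.6% of all genes with no replicate block and 14.0% with it.

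Between cell types, the CSex4 effect differed for Pou5f1, Utf1 and Dppa4, by -2.94, -2.76 and -2.61 (ESC minus NP), against 3.09% of all genes. The KO effect, taken in NP against the first WT pair only, differed for Sox2, by 2.66, and Fgf5, by -2.90, against 9.65%. All 5 held in the limma fits. For Deltaex4 no gene of the 10 was called as differing, by this test or by either limma fit, against 0.00512% of all genes. 2 of them (Otx2 and Lef1) had an unadjusted p under 0.05 in this test. The difference was -2.99 for Otx2 (SE 0.75, adjusted p = 0.394) and -1.69 for Lef1 (SE 0.84). The limma fit with no replicate block gave -2.98 and -1.63. The absence of a call thus does not show that the Deltaex4 effect on these genes was equal in ESC and NP. In the authors' deposited tables, the second NP WT pair relative to KO had -2.55 for Pou5f1 and -1.67 for Utf1. KO relative to WT in ESC had 0.07 and -0.75. Whether the KO effect differed between cell types with the second pair was not tested.

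Other genes of the same programmes were read from 4 fixed lists. In ESC KO-S, where 3 of 4 formative genes fell, 4 of 9 other formative or primed genes fell and none rose, against 3.63% of all genes lower and 4.28% higher, with a median of -1.59 against -0.02 for all genes tested. The largest called change was that of Zic2, a zinc finger factor, at -2.63 (SE 0.40, adjusted p = 1.19e-08) in the authors' deposited table. In the libraries labelled KO-L3D 4 of 9 fell and 1 rose, Foxd3 by 2.49 in the authors' deposited table, against 10.1% and 8.22% of all genes, with a median of -0.88. In the Wnt response list, 1 of 5 genes rose in KO-S (Axin2, a feedback inhibitor of the pathway, by 1.74) and none fell, and none of 5 was called in KO-L3D. In CSex4 and KO-L, where Lef1 was not called, Sp5, a Wnt target, rose by 3.88 and 3.27 in the authors' deposited tables. There 1 and 2 of the 5 Wnt response genes were higher, against 1.72% and 1.46% of all genes.

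Naive genes were called in ESC as well. In CSex4, where Pou3f1 rose, 6 of 11 naive genes fell and none rose, Prdm14 most, by -2.10 in the authors' deposited table, against 0.695% of all genes lower. In KO, 5 of 11 rose and none fell, against 11.01% higher. In KO-S 3 rose and 1 fell, against 4.28% and 3.63%, and in the libraries labelled KO-L3D 6 rose and 1 fell, against 8.22% and 10.1%. The list medians were -1.14, 0.43, 0.29 and 0.81, with medians over all genes of -0.01, 0.01, -0.02 and -0.02. Tbx3, a T-box factor of naive cells, had the largest change in those 3 groups, with 3.10, 2.84 and 3.78 in the authors' deposited tables.

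In NP, the other pluripotency lists were called beside the core genes. The naive list shares Nanog, Zfp42 and Esrrb with the ESC marker sum. In CSex4, 8 of 11 general pluripotency genes rose and 1 fell (median 2.50), and 8 of 11 naive genes rose (median 2.35), against 4.08% of all genes higher and 1.45% lower and a median over all genes of -0.04, led by Nr0b1 at 3.68 and Nanog at 2.79 in the authors' deposited table. In KO-L relative to KO, 8 of 11 general genes rose and 7 of 11 naive genes rose with 2 falling, against 10.9% of all genes higher and 13.8% lower. In KO-S relative to KO, 2 general genes rose and 3 fell and 7 of 11 naive genes fell, against 16.4% and 18.0%. Other formative or primed genes in NP CSex4 had 1 of 9 higher (Etv4, 1.85 in the authors' deposited table), and the median was -0.22.

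The genes whose log2 fold changes over the 13 comparisons ran most like those of each gene were found among 10238 genes with a baseMean of at least 100 in every table, as a description only, since comparisons share libraries. For Pou5f1, Zfp296 (r = 0.9754) was among them, and for Sox2 they were Pan2 (0.98) and Arrdc2 (0.978). Utf1 was most like Ttc39b (0.968), Lin28a like Lsm5 (0.967), and both Sall4 and Dppa4 like Pmm1 (both r = 0.946). Lef1 was most like Mrpl34 (0.906), Pou3f1 like Bscl2 (0.83), Fgf5 like Bex4 (0.929) and Otx2 like Raver2 (0.753). Fgf5 and Otx2 do not themselves reach that minimum in every table.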

How the data were processed

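RNA-seq was made from 18 ESC and 14 NP samples. The authors deposited 13 comparison tables with, per gene, a mean signal over the libraries (baseMean), a log2 fold change with its standard error (log2), a test score (stat) and p-values, raw and adjusted, and 2 region lists with 1 value per region, whose kind the deposited files do not state. The submitters' processing notes name Bowtie, TopHat, DESeq2, DiffBind, mm10 and dm3, with no version; which step each served is not given in the sources used here. No deposited column held per-sample values.

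The main test was the authors' own, an adjusted p under 0.05. Whole reads of each library were recovered from the baseMean values by lattice reduction (Python 3.11.15, sympy 1.14.0): 100.0% of 26171 genes came out whole, within a relative residual of 6.92e-15, and simulated data were recovered exactly. Library letters come from the authors' pairing as read from the standard errors of genes with a single read, by the second rule tried; no replicate number of the labels attaches to a letter. Levels were divided by size factors; plain CPM differ from them by -0.27 to 0.21 on the log2 scale. limma 3.58.1 (R 4.3.3, voom) was fitted once to all 32 libraries and 16136 genes with a mean of at least 10 reads, and adjusted by Benjamini-Hochberg. The genes and lists were chosen with earlier results of these data known. The read recovery, the library letters, every limma fit, the crossed pairing and the choice of normalised levels were decided after seeing the data. All 10 genes were named in all 13 comparisons; of other lists, the called gene with the largest change was named. Alternatives were stricter thresholds, adjustment over all genes, a minimum fold, other distances, ratios of group means and leaving out each library. The ChIP samples entered only through the region lists.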

Additional observations from a re-analysis of the deposited data

Results flagged for a closer look

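1 level stood apart in a group of 4: Sall4 in NP WT first pair B, at 135 against 49.7 to 56.6, where the gap to the next library was 0.920 of the whole range, above Dixon's 95% critical value. Chance flags about 1 in 20 such groups, and each of the 10 genes was looked at.

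The other results were picked out because 2 groups' effects differed in the test of the difference itself. For CSex4, ESC minus NP, the difference was -2.94 for Pou5f1, -2.76 for Utf1 and -2.61 for Dppa4. For KO, ESC minus NP (there against the first WT pair only), it was 2.66 for Sox2 and -2.90 for Fgf5.

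In ESC, KO-L minus the libraries labelled KO-L3D, whose Suz12 level is within the range of KO, gave 1.86 for Lin28a, 4.23 for Fgf5 and 6.49 for Lef1, KO-S minus KO-S3D gave -3.40 for Lef1, and KO-L minus KO-S gave 6.17 for Fgf5 and 5.60 for Lef1. In NP, CSex4 minus Deltaex4 gave 2.88 for Pou5f1, 3.26 for Utf1, 3.09 for Dppa4 and -5.74 for Otx2. NP KO-L minus KO-S gave 3.57 for Utf1, 1.20 for Sall4, 2.93 for Dppa4, -2.85 for Fgf5, -3.87 for Otx2 and 1.88 for Lef1.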

How the results depend on the processing

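Counts are of the 10 genes called. The authors' fits are paired; by the correlation of deviations of paired libraries, which ran from -0.55 (ESC Deltaex4) to 0.52 (NP KO-S against KO), the pairs did not all deviate together. With the replicate block, limma moved ESC CSex4 from 1 to 0, KO from 3 to 0, KO-L from 1 to 0, KO-S3D from 1 to 0, NP Deltaex4 from 1 to 0 and NP KO-S from 6 to 3. With no replicate block it moved KO to 1, KO-S3D to 0, NP Deltaex4 to 0 and NP KO-S to 2. In both fits the differences moved from 3 to 5 for KO-L and KO-L3D, from 1 to 2 for KO-S and KO-S3D, and from 0 to 3 for CSex4 and Deltaex4 in ESC. With no replicate block, limma called 37.9%, 15.5% and 17.6% of all genes for these differences. The cause of the moves was not tested. A crossed pairing gave 0 calls over all genes in ESC Deltaex4, as the pairing used did, and 8544 against 6622 in NP WT against KO.

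An absolute log2 fold change of at least 1 moved KO from 3 to 1, an adjusted p under 0.01 moved KO-L and KO-S3D from 1 to 0, and adjustment over all genes moved KO-S3D to 0. Set against the second WT pair, the KO effect in NP was 2.55 for Pou5f1 and 1.67 for Utf1, of the other sign than against the first, where neither was called (-0.09, adjusted p = 0.949, and -0.73, adjusted p = 0.363, in the authors' deposited table). Ratios of group means without pairing moved 1 called result and kept 38, and on plain CPM they moved 6 and kept 33. The other changes of setting kept counts within 1.5 times.

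Over all genes, the authors called 333, 1145, 2792 and 462 in ESC CSex4, KO-S, KO-L3D and KO-S3D, and limma with no replicate block 1297, 3194, 6573 and 4410 (with the block 663, 2257, 5712 and 3579). In ESC KO-L the counts were 309, 311 and 43. In NP CSex4, Deltaex4 and KO they were 863, 14 and 3514 by the authors, 1798, 1 and 6989 with no block, and 1353, 0 and 6537 with it.

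Leaving out 1 library, with a lone library assumed to vary like the rest, limma called 0 to 3 in ESC CSex4, 0 to 0 in Deltaex4, 0 to 2 in each of KO, KO-L and KO-S, 2 to 3 in KO-L3D and 0 to 1 in KO-S3D. In NP it called 2 to 5 in CSex4, 0 to 2 in Deltaex4, 2 to 5 in KO, 2 to 5 in WT against KO, 1 to 2 in KO-S and 4 to 7 in KO-L. The counts of differences ran from 2 to 4 (CSex4 between cell types), 0 to 0 (Deltaex4), 1 to 3 (KO), 3 to 5 (KO-L and KO-L3D), 0 to 3 (KO-S and KO-S3D), 2 to 2 (KO-L and KO-S in ESC), 0 to 3 (CSex4 and Deltaex4 in ESC), 4 to 5 (the same in NP) and 4 to 5 (KO-L and KO-S in NP). The Lef1 difference between KO-S and KO-S3D was not called without KO-S A, KO-S B or KO-S3D B. With all libraries and no replicate block, limma called 8.04% of all genes in ESC CSex4, 0.0% in Deltaex4, 22.7% in KO and 1.93% in KO-L. It called 19.8% in KO-S, 40.7% in KO-L3D and 27.3% in KO-S3D. In NP the shares were 11.1% in CSex4, 0.0062% in Deltaex4, 43.3% in KO and 49.7% in WT against KO. They were 25.5% in NP KO-L and 31.7% in NP KO-S. The precision rests on 2 to 4 libraries a group and on few reads for Fgf5 and Lef1 in KO-S and KO-L3D.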
